A study of Mus musculus with 2 samples.

Results

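Imprinted genes are transcribed from only the maternal or only the paternal chromosome, according to a methylation mark laid down in the germ line, and many of them act on growth, quiescence and stem cell maintenance. Here 8 of them were followed in mouse bone marrow: Meg3, Rian and Mirg, the maternally expressed non-coding RNAs of the Dlk1-Meg3 locus; H19, the maternal non-coding RNA next to Igf2; Ndn and Peg3, which are paternally expressed; Grb10, an adaptor protein that dampens insulin and growth factor signalling; and Gnas, which encodes the stimulatory G protein alpha subunit. The members were looked up by symbol among the 31053 genes of the matrix. A row was found for 7 of the 8, and Rian was not analysed here.

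The cells were Lin- Sca-1+ c-Kit+ (LSK) cells, the marrow fraction that holds the stem cells and early progenitors, sorted from C57BL/6JRj mice of 2 age groups, LSK_old at 22 to 28 months and LSK_young at 3 to 5 months. Each age group gave 1 library with antibody tags against CD150, CD48 and CLCA3A1 read beside the RNA. The merged matrix marks its libraries by barcode suffix 1 or 2, and no label ties a suffix to an age, so the suffixes are shown side by side and no age comparison was made. The mice were of an inbred strain, so the parental chromosomes cannot be told apart and every level is the sum over both alleles.

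After cells with 10% or more mitochondrial UMIs or with 1500 or fewer genes were left out, 4068 of 4688 cells remained, and 3986 of them carried tag values. No barcode occurred under both suffixes. Cells were sorted into 4 gates by rank within each suffix: CD150 at or above its 75th percentile or below it, and CD48 at or below its 25th percentile or above it. The CD150-high CD48-low gate, the surface phenotype under which long-term stem cells are usually sorted, held 555 cells (172 and 383 in suffixes 1 and 2). There were 454 CD150-low CD48-low cells, 450 CD150-high CD48-high cells and 2527 CD150-low CD48-high cells, the last being mostly multipotent progenitors by this surface code. The rank thresholds lay at different tag counts: CD150 at 40 tags in suffix 1 and 407 in suffix 2, CD48 at 224 and 42 tags. A gate is therefore a rank and not a fixed amount of antigen.

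The gates were read against marker lists. A list of 10 stem cell genes such as Procr, Hlf and Mecom was detected in full and summed to 1886 CPM, the UMIs of a gene scaled to a fixed total of UMIs, in the CD150-high CD48-low gate and to 701 CPM in the CD150-low CD48-high gate. By suffix the first of these sums was 1490 and 2055 CPM, and that of the CD150-low CD48-low gate 1481 and 1768 CPM, so in suffix 1 the list did not set these gates apart. A list of 6 cell cycle genes summed to 197.1 and 23.9 CPM in the CD150-high CD48-low cells of suffixes 1 and 2, and to 963 and 897 CPM in the CD150-low CD48-high cells. Of 10 genes of marrow stroma, a cell type that can express Meg3, 5 were detected in the CD150-high CD48-low gate and 8 in the CD150-low CD48-high gate, with sums of 15.8 and 23.0 CPM. In the CD150-high CD48-low gate Col3a1, Pdgfra, Lum, Adipoq and Bglap had no UMI, Cxcl12 had 2, Col1a1 4, Lepr 13, Pdgfrb 29 and Col1a2 71. Col1a2 stood at 9.44 CPM there and 2.33 CPM in CD150-low CD48-high cells. In the same order Lepr stood at 1.73 and 0.0206 CPM, Col1a1 at 0.532 and 0.433, Cxcl12 at 0.266 and 0.124 and Pdgfrb at 3.86 and 20.0. The part of stromal RNA in the Meg3 level was not tested. Of the other lists, 6 lymphoid genes such as Dntt and Ighm summed to 69.4 CPM in CD150-high CD48-low and 4263 CPM in CD150-low CD48-high cells (2229 CPM in CD150-low CD48-low cells of suffix 1), 6 myeloid genes to 287 and 667 CPM, and the progenitor genes Cd34, Flt3 and Cd48 to 95.4 and 826 CPM. The erythroid and megakaryocytic list summed to 49.2 and 48.6 CPM and the endothelial list to 98.1 and 91.6 CPM. The former turned between the suffixes, with 60.4 and 22.8 CPM in suffix 1 and 44.4 and 63.4 CPM in suffix 2. The part of the cells behind these lists in the gate ratios was not tested.

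Among the members with at least 50 UMIs, Meg3, Ndn and Grb10 differed most between the gates, so the RefSeq start-site windows of these 3 genes (300 bases each, GRCm38.p6) are shown, with every CG dinucleotide, the letters that imprinting methylates, in capitals.
Meg3, chr12:109540746-109541045, plus strand: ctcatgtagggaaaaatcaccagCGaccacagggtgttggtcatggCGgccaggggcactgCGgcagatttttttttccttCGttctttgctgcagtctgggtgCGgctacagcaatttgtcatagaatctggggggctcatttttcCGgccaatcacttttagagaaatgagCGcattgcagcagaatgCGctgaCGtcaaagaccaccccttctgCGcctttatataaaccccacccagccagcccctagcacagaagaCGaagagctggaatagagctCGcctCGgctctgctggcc
Ndn, chr7:62348027-62348326, plus strand: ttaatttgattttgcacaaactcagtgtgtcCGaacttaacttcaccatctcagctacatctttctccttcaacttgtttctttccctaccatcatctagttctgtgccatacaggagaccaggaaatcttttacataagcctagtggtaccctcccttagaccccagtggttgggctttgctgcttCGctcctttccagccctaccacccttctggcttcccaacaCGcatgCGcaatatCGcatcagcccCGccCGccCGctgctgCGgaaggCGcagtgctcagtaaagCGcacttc
Grb10, chr11:12037371-12037670, minus strand: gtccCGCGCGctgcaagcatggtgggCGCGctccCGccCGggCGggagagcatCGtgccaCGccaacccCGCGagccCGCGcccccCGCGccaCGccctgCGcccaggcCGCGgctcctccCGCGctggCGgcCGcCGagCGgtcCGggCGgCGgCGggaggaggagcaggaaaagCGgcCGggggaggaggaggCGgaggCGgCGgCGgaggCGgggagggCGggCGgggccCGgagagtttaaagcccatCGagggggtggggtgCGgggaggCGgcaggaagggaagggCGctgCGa
The table holds 1 window for Ndn and 2 each for Meg3 and Grb10, of which the one nearer the annotated start of the gene is printed. The printed Grb10 window held 45 CG, a number reached by 1.93% of the 32851 windows in the table, and its other window (chr11:12027922-12028221) held 9, reached by 45.8%. The printed Meg3 window held 13 CG (37.9%), its other window (chr12:109545148-109545447) held 1 (94.6%), and that of Ndn held 11 (41.4%). The Meg3 window held TATAAA on both strands in overlapping letters, a motif in 13.6% of windows, and TGACGTCA, the cyclic AMP response element, in 1.79% of windows. It and the Grb10 window each held 1 match to TGCCGC, the hexamer bound by ZFP57 (11.6% of windows, both strands read). A TGCCGC match was not seen in the Ndn window, which held GGGCGG 2 times (35.7% of windows). The printed Grb10 window held GGGCGG 5 times.

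Meg3 lies at chr12:109541001-109571726 on the plus strand (GRCm38) and is annotated as a long intergenic RNA. In suffix 1 its level was 77.3 CPM in CD150-high CD48-low cells (95% Poisson interval 66.2 to 89.6), 45.5 CPM in CD150-low CD48-low cells, 29.0 CPM in CD150-high CD48-high cells and 15.2 CPM in CD150-low CD48-high cells. In suffix 2 the levels in the same order were 117.5, 77.5, 86.1 and 10.6 CPM. In both suffixes the level was highest in the CD150-high CD48-low gate and lowest in the CD150-low CD48-high gate. The order of the gates between them is not resolved. In suffix 1 the CD150-low CD48-low level was the higher of them, but 10 cells held 67.8% and 76.3% of the UMIs of these gates, and the shares of cells with Meg3 after thinning to 9000 UMIs overlapped, at 12.9% (8.29 to 18.9) and 10.7% (6.81 to 15.7).

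Ndn encodes necdin, a growth suppressor that helps to keep stem cells quiescent (chr7:62346569-62350262, plus strand). Its level was 53.7, 26.1, 23.4 and 9.9 CPM over the same order of gates in suffix 1 and 88.5, 61.8, 70.9 and 14.2 CPM in suffix 2. The CD150-high CD48-low gate was the highest and the CD150-low CD48-high gate the lowest in both. The intermediate gates of suffix 1 had overlapping intervals (20.2 to 33.2 and 19.2 to 28.3).

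Grb10 (chr11:11930508-12038683, minus strand) stood at 48.0, 23.7, 21.1 and 6.0 CPM in suffix 1. In suffix 2 it stood at 51.5, 47.6, 41.6 and 11.4 CPM. In suffix 1 the CD150-high CD48-low gate (39.3 to 57.9) lay clear of the others. The 3 higher gates of suffix 2 had overlapping intervals (45.5 to 58.0, 39.9 to 56.3 and 35.8 to 48.1), although the ratio of the first to the third of these levels, 1.24, had an interval that just left out 1 (1.02 to 1.5).

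Gnas, the most abundant member (chr2:174284320-174346744, plus strand), went the other way or not at all. It stood at 677, 697, 683 and 687 CPM in suffix 1, with all intervals overlapping, and at 435, 505, 533 and 567 CPM in suffix 2, where the CD150-high CD48-low gate was the lowest. The transcripts of the Gnas locus, imprinted and not, share their last exons, and 3' counts add them together. The antisense RNA Nespas, a transcript of the same locus, had 14 UMIs over all gates.

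**Figure D1:**
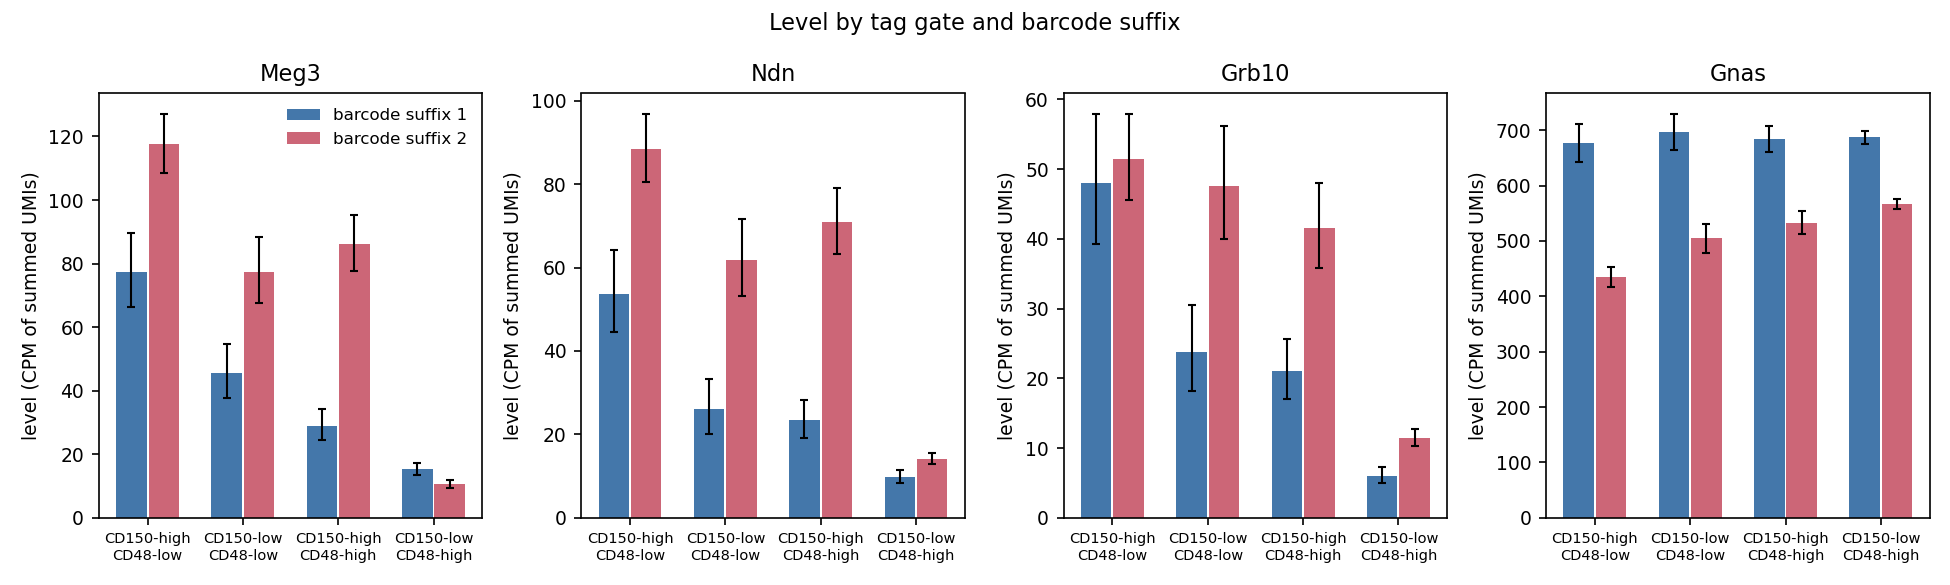
Level of Meg3, Ndn, Grb10 and Gnas (CPM of summed UMIs, vertical axis from 0) in the 4 tag gates; blue bars are barcode suffix 1, red bars barcode suffix 2, and black lines are 95% Poisson intervals for counting error. Meg3 falls from 77.3 to 15.2 CPM and from 117.5 to 10.6 CPM between the outer gates, while Gnas in suffix 1 stays between 677 and 697 CPM.

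The CD150-high CD48-low cells were then set against the other 3 gates together, the ratio of their CPM being given with its exact conditional interval. With 1 library per age and no replicate, these intervals cover counting error only, no test was made, and a gene was called where it differed 2-fold or more. Over both suffixes the ratio was 4.58 for Meg3 (4.20 to 5.0), 3.84 for Ndn (3.48 to 4.24) and 3.38 for Grb10 (3.0 to 3.82). For Gnas it was 0.833 (0.806 to 0.862). Meg3 fell to 2.59 when the gates were set at the 90th and 10th percentiles. With cells held to under 5% mitochondrial UMIs and over 2500 genes, which left 57 in the gate, Meg3 stood at 7.43, Ndn at 9.22, Grb10 at 5.38 and Gnas at 1.02, and the Meg3 level in the gate was 36.5 instead of 105.5 CPM. Of the 4 members with at least 50 UMIs, 3 were thus 2-fold or more higher and none lower. Beside them, 8.0% of all 12606 genes with as many UMIs were higher and 8.41% were lower. The members were chosen with earlier results of these data known, so this count is a description. Each of the 3 passed in suffix 1 (background 7.34% higher) and in suffix 2 (8.81%): 3.70 and 4.81 for Meg3, 3.82 and 3.63 for Ndn, 4.51 and 2.91 for Grb10. Gnas stood at 0.985 (0.934 to 1.04) and 0.780 (0.747 to 0.814).

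The difference was mostly one against the CD150-low CD48-high cells. Against them, where 10.6% of all genes were 2-fold or more higher, the ratios were 8.61 for Meg3, 6.19 for Ndn and 5.34 for Grb10. By suffix they were 5.09 and 11.1 for Meg3, 5.45 and 6.24 for Ndn and 7.98 and 4.51 for Grb10. Against CD150-low CD48-low cells they were 1.69, 1.73 and 1.38 (background 4.17%). Here suffix 1 gave 1.70, 2.06 and 2.02, with 6.87% of all genes at 2-fold or more, and suffix 2 gave 1.52, 1.43 and 1.08 (0.877 to 1.34), with 4.59%. Against CD150-high CD48-high cells they were 1.85, 1.68 and 1.62, and none of the 3 genes reached 2-fold there over both suffixes (background 2.28% of genes higher). By suffix this last comparison gave 2.66, 2.29 and 2.28 in suffix 1, where 6.00% of all genes were 2-fold or more higher, and 1.36, 1.25 and 1.24 in suffix 2, where 2.20% were.

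Mirg, H19 and Peg3 had 12, 9 and 28 UMIs in all gated cells and did not reach 50 UMIs. Mirg, a host transcript of microRNAs (chr12:109729764-109749460, plus strand), had 5 UMIs in CD150-high CD48-low cells, 5 in CD150-high CD48-high cells and 2 in CD150-low CD48-high cells; the ratio was 5.98 (1.5 to 21.9). In suffix 1 its 2 UMIs both lay in CD150-low CD48-high cells, and in suffix 2 all 10 lay in the CD150-high gates. H19 (chr7:142575529-142578143, minus strand) had 8 UMIs in 7 CD150-high CD48-low cells and 1 UMI in the other gates together, a ratio of 67.0 (8.98 to 2974). All 3 of its UMIs in suffix 1 and 5 of the 6 in suffix 2 came from CD150-high CD48-low cells. Its neighbour Igf2, the paternally expressed growth factor, had no UMI. Peg3, a zinc finger protein (chr7:6703892-6730431, minus strand), had 9 UMIs in CD150-high CD48-low cells and 19 elsewhere, a ratio of 3.97 (1.58 to 9.20). In suffix 2 its level was 1.52 CPM in CD150-high CD48-low cells and 2.47 CPM in CD150-high CD48-high cells, with overlapping intervals.

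To see what stray RNA alone would give, cells with at least 50 UMIs of Mpo, the myeloperoxidase of granulocyte progenitors, were taken from the CD150-low CD48-high gate. These 47 cells, pooled over both suffixes, had a median of 35242 UMIs, against 13334 in the CD150-high CD48-low gate. Meg3, Ndn and Grb10 had 1 UMI each in all of them together, 0.585 CPM (0.0148 to 3.26). Stray RNA adds UMIs per droplet, so the values were also set per cell: 0.0213 UMIs of each gene in the 47 cells (0.000539 to 0.119). Meg3 and Ndn lay above that interval in every gate and suffix, from 0.202 and 0.191 UMIs per cell upward. Grb10 lay above it in all but the CD150-low CD48-high cells of suffix 1, which at 0.116 UMIs per cell cannot be told from that limit. Gnas stood at 538 CPM in the same 47 cells. Their limit was read over both suffixes, and the stray RNA of each suffix alone was not measured.

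Cells were next thinned to 9000 UMIs each, which left out 36 CD150-high CD48-low and 92 CD150-low CD48-high cells that were shallower, so that shares of cells could be compared. At least 1 Meg3 UMI was found in 18.5% of CD150-high CD48-low cells (15.2 to 22.1, exact binomial) and in 4.52% of CD150-low CD48-high cells (3.73 to 5.42). For Ndn the shares were 47.2% and 11.3%, for Grb10 33.3% and 8.50%. None of the 47 cells rich in Mpo held any of the 3 after thinning, which allows a share of up to 7.55% by the exact interval. The 4.52% of Meg3 in CD150-low CD48-high cells is under that limit as a share, although 43 cells of this gate held 5 or more Meg3 UMIs before thinning and the 47 cells held at most 1. Without thinning, the shares in CD150-high CD48-low cells were 22.7% for Meg3, 60.0% for Ndn and 45.9% for Grb10. In CD150-high CD48-low cells Meg3 thus had the highest level of the 3 genes and the fewest cells.

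Meg3 UMIs came in clumps. Of 555 CD150-high CD48-low cells, 429 had no Meg3 UMI, 25 had 1, 45 had 2 to 4, 28 had 5 to 9 and 28 had 10 or more, the highest cell holding 37. The 56 cells with 5 or more made up 10.1% of the gate and held 80.6% of its Meg3 UMIs. For Ndn, 9 cells reached 5 UMIs and held 9.71% of the UMIs. For Grb10, 2 cells did, with 2.90%. At its mean level, Meg3 spread over the thinned cells by counting alone would have been seen in 58.9% of them instead of 18.5%. For Ndn these values were 48.8% and 47.2%, and for Grb10 34.7% and 33.3%.

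The variance over the mean of the thinned counts (Fano factor, 1 for pure counting) was 7.52 for Meg3 in CD150-high CD48-low cells. The median was 1.03 over the 2379 genes within 2-fold of its level, and 3 of those genes stood above it: Cxcl10, Hbb-bt and Ifit1. The factor was 1.35 for Ndn, 1.11 for Grb10 and 1.42 for Gnas. In suffix 1 alone it was 4.54 for Meg3, with 8 such genes above it, and in suffix 2 alone 8.16, with 3. A separate thinning draw gave 7.95 over both suffixes. Clumps were not limited to the CD150-high CD48-low gate: 24 CD150-low CD48-low, 41 CD150-high CD48-high and 43 CD150-low CD48-high cells held 5 or more Meg3 UMIs, and the highest cell of all, with 48, was CD150-high CD48-high. The 43 CD150-low CD48-high cells had fewer CD48 tags than the cells of this gate without Meg3. By suffix the CD48 medians were 450 and 67.5, against 687 and 398, with the gate threshold at 224 and 42 tags. Those of CD150 were 7 and 93, against 4 and 7. Because of the clumps the Poisson intervals of Meg3 are too narrow.

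**Figure D2:**
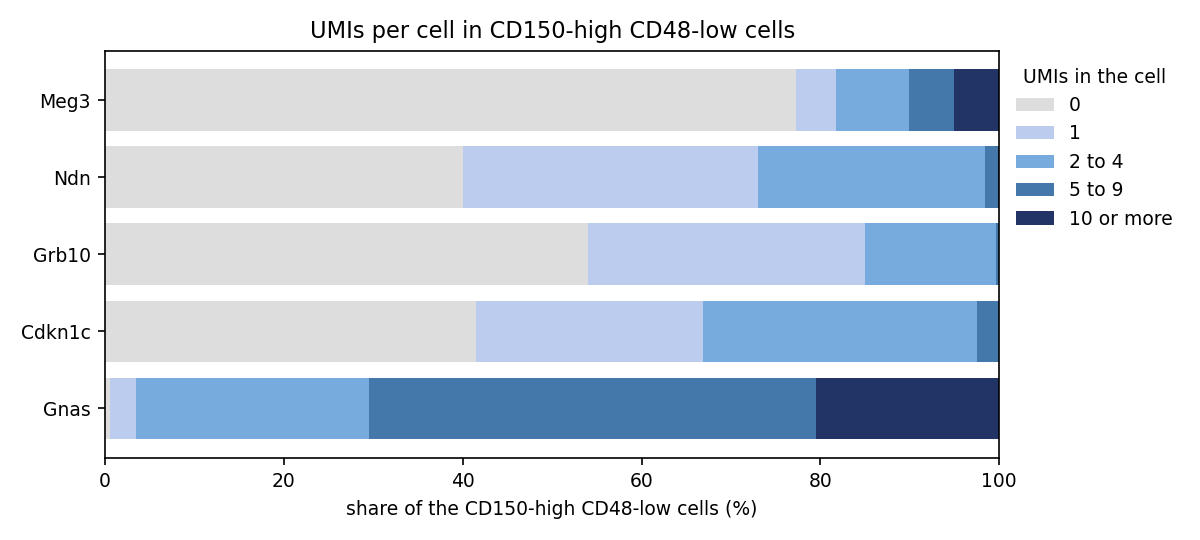
Share of the 555 CD150-high CD48-low cells (horizontal axis, percent) that held 0, 1, 2 to 4, 5 to 9 or 10 or more UMIs of Meg3, Ndn, Grb10, Cdkn1c and Gnas, shown as stacked bars from light to dark. Meg3 is at 0 in 429 cells and yet has 28 cells with 10 or more, while Ndn and Grb10 are spread over many cells with 1 or a few UMIs.

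In the CD150-high CD48-low gate the suffixes differed in the Meg3 held per cell more than in the share of cells. In CD150-high CD48-low cells the thinned share was 18.6% in suffix 1 and 18.5% in suffix 2, whereas a cell with Meg3 held on average 4.14 UMIs in suffix 1 and 7.37 in suffix 2. Cells with 5 or more were 6.98% and 11.5% of the gate. In CD150-high CD48-high cells the share itself differed, at 10.7% (6.81 to 15.7) and 21.4% (16.4 to 27.2). For Ndn the thinned share itself differed, 35.3% (27.8 to 43.3) and 52.3% (47.1 to 57.6).

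Set as suffix 2 over suffix 1 within a gate, Meg3 stood at 1.52 in CD150-high CD48-low cells (1.28 to 1.81), 1.70 in CD150-low CD48-low cells, 2.97 in CD150-high CD48-high cells and 0.696 in CD150-low CD48-high cells (0.590 to 0.821). Ndn stood at 1.65, 2.37, 3.03 and 1.44 and Grb10 at 1.07, 2.00, 1.98 and 1.90. Gnas was lower in suffix 2 in every gate, at 0.643, 0.724, 0.780 and 0.825. In CD150-high CD48-low cells 6.79% of all genes were 2-fold or more higher in suffix 2 and 7.12% lower, and none of the 4 members reached 2-fold there. In CD150-low CD48-low cells Ndn and Grb10 did, beside 7.69% of all genes, and in CD150-high CD48-high cells Meg3 and Ndn did, beside 7.66%. The Meg3 intervals treat clumped UMIs as independent, and in CD150-low CD48-high cells the thinned shares of the suffixes overlapped (5.12%, 3.76 to 6.79, and 4.18%, 3.24 to 5.29). Library, age and the differing tag thresholds cannot be told apart in these ratios.

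The locus of Meg3 was then read cell by cell. Mirg starts 189 kb downstream of the Meg3 start, and between them lies the non-coding B830012L14Rik (chr12:109695586-109702587, plus strand), which together with Meg3 and Mirg is transcribed in the same direction. All 10 cells with a Mirg UMI also held Meg3, with 3, 7, 7, 13, 13, 16, 17, 17, 19 and 48 Meg3 UMIs (exact interval of the share 69.2% to 100%). Of the 11 cells with B830012L14Rik, 9 held Meg3, 7 of them at 5 UMIs or more. Meg3 was found in 11 of the 26 cells with Peg3 and in 3 of the 8 cells with H19, genes of other chromosomes.

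Since gates and suffixes differ in all of these levels, the cells with both transcripts were set beside the number that the separate shares within each of the 8 gate-by-suffix groups would give. At 9000 UMIs, 4 cells held Meg3 and Mirg where the shares gave 0.635, a quotient of 6.30. For B830012L14Rik there were 8 cells against 1.26 (6.36), and for Dlk1, the paternally expressed protein gene of the locus, 18 against 8.11 (2.22). The Dlk1 quotient was 2.47 in suffix 2, and in suffix 1, where few cells had Dlk1, 0.807 from 1 cell with both at 9000 UMIs, 4.13 from 4 cells at 5000 UMIs and 1.84 from 7 cells without thinning. Genes of other loci ranged from 0.983 for Gnas to 2.60 for H19, so quotients as high as that of Dlk1 were not limited to the locus. H19 had 2 cells against 0.768 (5.44 from 3 cells at 5000 UMIs and 1.66 from 3 cells unthinned) and Peg3 5 cells against 2.39 (2.09). The quotients were 1.24 for Ndn (125 cells against 101), 1.25 for Grb10 (91 against 72.5) and 1.35 for Cdkn1c (133 against 98.9). The pairs Ndn with Grb10 and Ndn with Cdkn1c, both of separate loci, stood at 1.18 and 1.20. The quotients of Mirg and B830012L14Rik rest on these 4 and 8 cells.

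Dlk1 encodes a transmembrane protein of the Notch ligand family, and it is expressed from the opposite parental chromosome to Meg3 (chr12:109452823-109463336, plus strand). In CD150-high CD48-low cells without Meg3 its level was 2.23 CPM (1.19 to 3.81). It was 20.7 CPM (12.7 to 32) in the 70 cells with 1 to 4 Meg3 UMIs and 45.7 CPM (31.5 to 64.2) in the 56 cells with 5 or more, with Meg3 itself left out of the total. Cells with Dlk1 were 10 of 429, 8 of 70 and 14 of 56. Poisson intervals of Dlk1 are too narrow as well, since 3 cells held 31.8% of the 66 Dlk1 UMIs of the gate. Most of these UMIs came from suffix 2, where Dlk1 had 61 of its 66 UMIs in the gate and the level in the Meg3-rich cells was 55.3 CPM. In suffix 1 the gate had 4 cells with Dlk1, and all 4 held Meg3. In CD150-low CD48-high cells Dlk1 was 1.09 CPM without Meg3 and 7.96 CPM in the 43 Meg3-rich cells, the latter being 5 UMIs in 2 cells. Over both suffixes, the shares of cells with Dlk1 at 9000 UMIs separated only in CD150-high CD48-low cells. There they were 10.4% (5.11 to 18.3) with Meg3 and 2.84% (1.47 to 4.90) without. In CD150-low CD48-low cells they were 5.77% (1.21 to 15.9) and 1.25% (0.342 to 3.17). In CD150-high CD48-high cells they were 4.11% (0.856 to 11.5) and 2.70% (1.30 to 4.90), and in CD150-low CD48-high cells 1.82% (0.221 to 6.41) and 0.817% (0.493 to 1.27). Rtl1 and Dio3, the other protein genes of the locus, had no UMI in any gate.

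Ndn, Grb10 and Gnas varied less with Meg3. Across the same 3 classes Ndn stood at 73.1, 90.1 and 102.6 CPM, the last interval (80.5 to 128.7) just clear of the first (66.3 to 80.3). The gate held Ndn at 53.7 and 88.5 CPM in the suffixes, which the classes mix unequally, so this order is not resolved. Grb10 stood at 46.6, 55.9 and 73.4 CPM, and Gnas at 495, 569 and 529 CPM. In suffix 1 the 12 Meg3-rich cells are too few to order these values. The classes were alike in depth and quality: median UMIs were 13386, 13963 and 12132.5, and median mitochondrial shares 6.65%, 6.61% and 6.86%. Their median CD150 tags were 139, 330.5 and 577 in suffix 1 and 815, 715 and 706.5 in suffix 2. Suffix 1 gave 130, 30 and 12 of their cells, and the part of the suffixes in the pooled levels was not tested. The stem cell genes Procr and Hlf were 204 and 343 CPM in cells without Meg3 and 265 and 424 CPM in Meg3-rich cells.

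**Figure D3:**
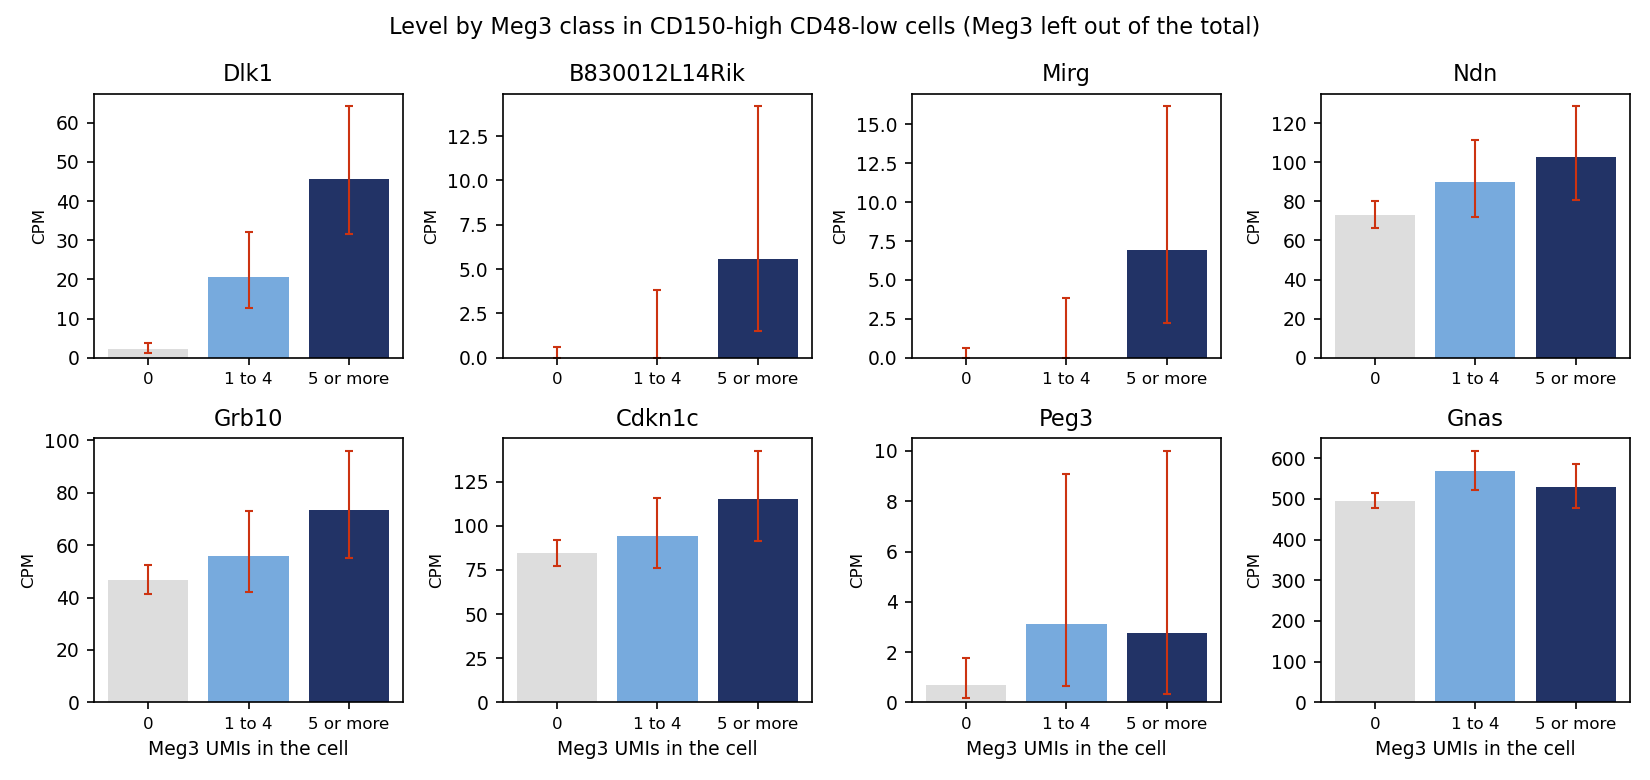
Level (CPM, each panel with its own axis from 0) of genes of the Meg3 locus (Dlk1, B830012L14Rik, Mirg) and of other imprinted genes in CD150-high CD48-low cells with 0, 1 to 4 or 5 or more Meg3 UMIs; red lines are 95% Poisson intervals. Dlk1 goes from 2.23 to 45.7 CPM and Mirg has UMIs only in the class with 5 or more, while Gnas stays between 495 and 569 CPM.

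Members were also compared by readouts that the gates did not use. The CLCA3A1 tag still followed the gating tags. Its medians in suffixes 1 and 2 were 25 and 214 in CD150-high CD48-low and 26 and 257 in CD150-high CD48-high cells. In CD150-low CD48-low cells they were 5 and 43, and in CD150-low CD48-high cells 7 and 12. The part of the CD150 and CD48 tags in the CLCA3A1 split was not tested. In CD150-high CD48-low cells, those above the median of the CLCA3A1 tag had a Meg3 level 0.881 times that of the rest (0.764 to 1.01), and Ndn stood at 1.20 (1.02 to 1.42), Grb10 at 0.960 (0.781 to 1.18) and Gnas at 0.961. The Ndn ratio was 1.60 in suffix 1 and 1.11 in suffix 2, where its interval (0.922 to 1.34) held 1. In CD150-low CD48-high cells the same split gave 2.21 for Meg3, 2.12 for Ndn and 2.36 for Grb10. This came from suffix 2, with 3.96, 2.84 and 2.88, against 1.20, 1.12 and 1.37 in suffix 1, whose 3 intervals all held 1.

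Cells with a UMI of the cell cycle list were lower in 3 members where such cells were common. Within CD150-low CD48-high cells the ratio of cells with to cells without was 0.309 for Meg3 (0.262 to 0.365), 0.522 for Ndn and 0.513 for Grb10, and 1.05 for Gnas. The 3 ratios and their intervals lay below 1 in both suffixes, with Meg3 at 0.489 and 0.209. In CD150-high CD48-low cells Meg3 stood at 1.02 in suffix 1 and 0.874 in suffix 2, Ndn at 1.02 and 0.845, Grb10 at 1.19 and 0.940 and Gnas at 0.979 and 1.05, and all 8 intervals held 1. Cells with a UMI of 6 genes are in part the deeper cells, and the part of depth in these ratios was not tested.

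Beyond the members, a list of 73 further genes imprinted in the mouse was read, several of them imprinted in placenta only. Of the 73, 68 had a row, 16 had no UMI in the gates and 37 had at least 50. With the members that made 41 genes. Members and list were chosen with earlier results of these data known, so the shares describe these data and test no enrichment. In CD150-high CD48-low cells 11 of the 41 (26.8%) were 2-fold or more higher than in the other gates, against the background of 8.0%, and 1 (2.44%) was lower, against 8.41%. The median log2 ratio was 0.26 over the 41 and -0.03 over all 12606 genes. Against the CD150-low CD48-low gate alone 7.32% were higher (background 4.17%), against the CD150-high CD48-high gate 4.88% (background 2.28%) and against the CD150-low CD48-high gate 29.3% (background 10.6%). The first 2 of these shares rest on 3 and 2 genes: in suffix 1 both were 14.6% (backgrounds 6.87% and 6.00%), and in suffix 2 they were 4.88% and 2.44%, close to the backgrounds of 4.59% and 2.20%.

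Cdkn1c, which encodes the cell cycle inhibitor p57, stood at 88.6 CPM in CD150-high CD48-low cells and 19.4 CPM elsewhere, a ratio of 4.57 (4.15 to 5.03), with 3.95 and 4.52 in the suffixes. Phlda2, its neighbour on chromosome 7, stood at 2.17, with 3.16 in suffix 1 and 1.75 in suffix 2. Dlk1 had a ratio of 5.53 (3.99 to 7.62), which was 1.62 (0.495 to 4.17) in suffix 1 and 6.70 in suffix 2. The UMIs of Dlk1 were clumped, so these intervals are too narrow. Begain, upstream of Dlk1, stood at 2.53 from 19 and 63 UMIs. Snrpn, the paternally expressed splicing factor gene of the Ndn region, stood at 4.30 (3.08 to 5.95), while Peg12 and Mkrn3 of that region stood at 1.14 and 1.62 and Magel2 had no UMI. Asb4 stood at 4.04 and Zrsr1 at 2.12, the latter at 1.53 in suffix 1 and 2.26 in suffix 2.

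The Igf2r locus split. Airn, the antisense RNA that silences Igf2r on the paternal chromosome, stood at 12.8 and 4.11 CPM, a ratio of 3.11 (2.43 to 3.94), which was 1.70 (0.892 to 2.99) in suffix 1 and 3.54 in suffix 2. Slc22a3, an organic cation transporter gene of the same locus, was the 1 gene lower, at 8.91 and 40.2 CPM, a ratio of 0.222 (0.171 to 0.282). It stood at 0.543 in suffix 1 and 0.0884 in suffix 2. Igf2r itself stood at 0.635 (0.365 to 1.03) in suffix 1 and 1.68 (1.26 to 2.20) in suffix 2. Kcnq1ot1, the long non-coding RNA of the Cdkn1c domain, was abundant and nearly level, with 684 and 592 CPM.

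**Figure D4:**
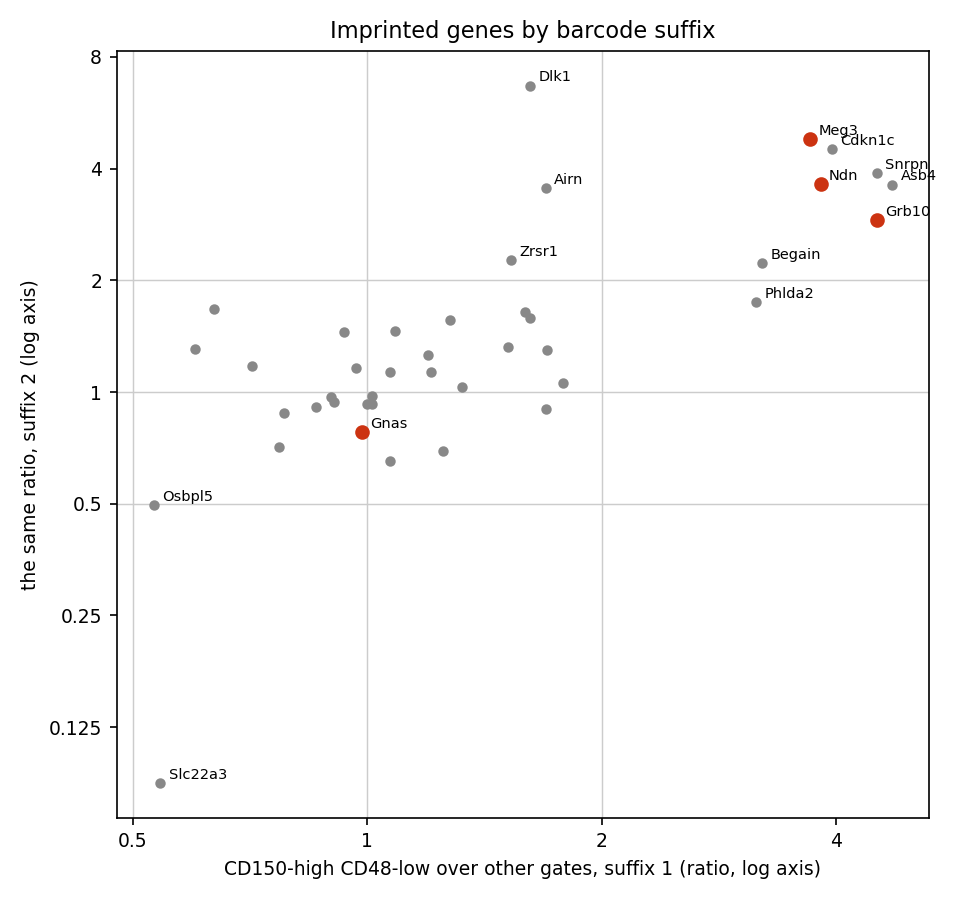
Ratio of the level in CD150-high CD48-low cells over the other gates for the 41 imprinted genes with at least 50 UMIs, in suffix 1 (horizontal, log axis) and suffix 2 (vertical, log axis); red points are members and grey lines mark 0.5, 1 and 2. In both suffixes 7 genes lie at 2 or above, among them Meg3, Ndn, Grb10 and Cdkn1c, and Slc22a3 lies lowest in suffix 2.

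Of 20 genes that set or keep imprints, 17 had at least 50 UMIs, 1 (5.88%) was 2-fold or more higher in CD150-high CD48-low cells, a share not above the 8.0% of all genes, and 3 were lower (8.41% of all genes). The higher one was Zfp57, the zinc finger protein that guards methylated imprints, at 8.78 CPM (6.79 to 11.2) against 4.06 CPM (3.58 to 4.59). The lower ones were Dnmt1, the maintenance methyltransferase, at 31.8 and 109.4 CPM, Uhrf1, its partner at replicated DNA, at 9.18 and 67.1 CPM, and Ezh2, of Polycomb, at 35.1 and 124.8 CPM. The cell cycle list moved with these 3, as given above, and its part in them was not tested.

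Likeness was measured as Pearson's r of log2(CPM + 10) over the 8 gate-by-suffix sums, for 10796 genes with at least 200 UMIs. These 8 points share 2 libraries and the gating, so r is a description. Nearest to Meg3 were Tinagl1 (0.995), Efcab14 (0.994) and Wfdc2 (0.989), with Ndn in place 63 (0.970) and Grb10 in place 155 (0.956). Nearest to Ndn was Cdkn1c (0.996), followed by Por and Hacd4 (each 0.995), and nearest to Grb10 were Ccdc112 (0.998), Ppp1r15a (0.993) and Myct1 (0.991). Gnas had r of -0.54 with Meg3 and was nearest to Csnk1g2 (0.985), Tst (0.982) and Champ1 (0.981). Over thinned CD150-high CD48-low cells, the genes nearest to Meg3 were Jam3, Smtnl1, Prtn3, Vldlr and Ash1l, with mean r from 0.197 to 0.231, too weak to count as a finding.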

How the data were processed

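LSK cells of each age gave 1 library. The authors aligned the reads to mm10 with Cell Ranger 3.1.0, which collapsed UMIs per gene and barcode and normalised the libraries against each other with its aggr step, whose setting is not given in the sources used here and which can thin the deeper library; the deposited matrix holds whole UMI counts after that step. The deposited tag table holds log10 values of tag counts made with CITE-seq-Count, which were turned back into counts; barcodes with no tag of a kind were read as 0. Gene positions came from GENCODE (GRCm38) and windows from RefSeq.

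Members and gene lists were chosen with earlier results of these data known. UMIs were summed over the cells of a gate and suffix and divided by all UMIs (CPM). Levels carry exact Poisson, ratios exact conditional binomial and shares Clopper-Pearson intervals at 95%. UMIs are molecules of single cells that vary, so intervals cover counting error only. Genes under 50 UMIs in gated cells were not called, and the limit for a count of 0 is the upper bound of the exact interval. Shares used cells thinned to 9000 UMIs without replacement. The gates held 70507795 UMIs, with medians from 11203 to 19922 per cell by gate and suffix. Genes named from the lists were those 2-fold or more apart, members of the same loci, and the nearest by likeness; Kcnq1ot1, Igf2r, Procr and Hlf, and the motif TGACGTCA, were named after their values were seen. Scrublet in scanpy 1.11.5 called 30 doublets (0.737%), which were kept and left out as an alternative. The ratio and thinning were tested on simulated data. Python 3.11.15, numpy 2.4.6 and scipy 1.17.1 were used. Alternatives were other gates, filters, depths and denominators, and each suffix alone.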

Additional observations from a re-analysis of the deposited data

Results flagged for a closer look

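The 702 cells outside the gates, which failed the cell filter or had no tag values, also held the members. There Meg3 stood at 69.1 CPM (61.0 to 77.9), Ndn at 45.8 CPM, Grb10 at 38.5 CPM and Gnas at 445 CPM. Of these cells 587 failed the filter but had tags, 82 passed it without tags and 33 had neither. With percentiles taken over all tagged cells, the tags put 93 of the 587 in the CD150-high CD48-low gate, with Meg3 at 161.0 CPM (126.6 to 201.8), and 284 in the CD150-low CD48-high gate, with Meg3 at 35.2 CPM (26.1 to 46.6). The median depth of the 587 cells was 4072 UMIs.

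The suffix contrast of Meg3 turned between gates. Suffix 2 over suffix 1 was 0.696 in CD150-low CD48-high cells and above 1 in the other 3 gates. The difference was not tested, since each suffix is 1 library. The UMIs of Meg3 are clumped, and the thinned shares of cells in the CD150-low CD48-high gate, 5.12% and 4.18%, overlapped in their intervals, so the turn is not resolved.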

How the results depend on the processing

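An age comparison had no replicates, because each age is 1 library and no column carries a replicate. The gates occur in both suffixes, and their ratios were also read within each suffix, without a test. Meg3, Ndn and Grb10 were above 2-fold in the CD150-high CD48-low gate under every alternative run, and 28 of the 52 ratios of the 4 abundant members stayed within the interval of the reported value. Those that moved were, with thresholds set over both suffixes together, Meg3 5.64, Ndn 4.88 and Gnas 0.775; at the 90th and 10th percentiles (115 cells) Meg3 2.59, Ndn 3.26 and Gnas 0.875; under 5% mitochondrial UMIs and over 2500 genes (57 cells) Meg3 7.43, Ndn 9.22, Grb10 5.38 and Gnas 1.02, the last past 1, while the levels in the gate were Meg3 36.5, Ndn 50.1 and Grb10 27.1 CPM, against 105.5, 78.1 and 50.4; as a mean over cells Meg3 3.74, Ndn 3.13 and Grb10 2.81; thinned to 9000 UMIs Meg3 3.57, Ndn 3.11 and Grb10 2.79. Ndn was 3.47 over all cells with tags, Gnas 0.892 over UMIs without mitochondrial, ribosomal and member genes, and Meg3 5.18 without the 10 highest cells of each gate, an alternative chosen after seeing the data. Suffix 1 alone gave Meg3 3.70, Grb10 4.51 and Gnas 0.985, and suffix 2 alone Grb10 2.91 and Gnas 0.780. Rare transcripts fell to a ratio of 0 where the gate held none: Mirg in suffix 1, and Peg3 and Dlk1 in the 57 cells of the stricter filter. The cause of these moves was not tested.

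Shares of cells moved with depth by construction. At 5000 UMIs they were 3.66% for Meg3 in CD150-low CD48-high cells, 32.2% and 6.28% for Ndn in CD150-high CD48-low and CD150-low CD48-high cells, and 22.0% and 5.21% for Grb10. Unthinned they were 22.7% and 5.70% for Meg3, 60.0% and 18.3% for Ndn and 45.9% and 13.6% for Grb10. In suffix 1 Ndn stood at 35.3% and 8.65%, in suffix 2 at 52.3% and 12.9%; Grb10 in CD150-low CD48-high cells stood at 5.57% and 10.2%. The quotient of cells with Meg3 and Mirg was 19.5 in suffix 1, from 1 cell with both. That of Meg3 and Dlk1 was 3.58 at 5000 UMIs, and in suffix 1 it was 0.807 from 1 cell with both at 9000 UMIs; chosen after seeing the data, suffix 1 gave 4.13 at 5000 UMIs and 1.84 unthinned, so its value in suffix 1 depends on the depth. The imprinted genes 2-fold or more higher numbered 17 of 53 at a minimum of 10 UMIs, beside 11.8% of all genes, and 7 of 35 at 200, beside 4.84%, and those lower numbered 0 of 41 in suffix 1, beside 7.96% of all genes, and 2 of 41 in suffix 2, beside 10.1%. At these depths the order of Mirg and Peg3 between the 2 CD150-high gates is not resolved.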
